A study of Mus musculus with 36 samples.

Results

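The genes described here are 34 genes of glycolysis and of the response to low oxygen, of the 55401 gene identifiers counted in the RNA-seq libraries. They were chosen by name for their known functions, with earlier results of these data known, and all 34 were matched to an Ensembl identifier in the GRCm38 annotation. They comprise 17 glycolytic enzymes (*Hk1*, *Hk2*, *Gpi1*, *Pfkl*, *Pfkm*, *Pfkp*, *Aldoa*, *Aldoc*, *Tpi1*, *Gapdh*, *Pgk1*, *Pgam1*, *Eno1*, *Eno2*, *Pkm*, *Ldha* and *Ldhb*). A further 4 are transporters of glucose (*Slc2a1* and *Slc2a3*) or of lactate (*Slc16a1* and *Slc16a3*), and 3 are regulators of glycolytic flux (*Pdk1*, *Pfkfb3* and *Pfkfb4*). The other 10 are genes known to be induced by hypoxia (*Bnip3*, *Egln1*, *Egln3*, *Ndrg1*, *Vegfa*, *Ankrd37*, *Car9*, *Higd1a*, *P4ha1* and *Kdm3a*).

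Poly(A) RNA was measured in 36 libraries of mouse C57BL/6 embryonic stem cells (ESCs) and of epiblast-like cells (EpiLCs) made from them, with 3 libraries in each of 12 groups. A first pair of lines was J2WT (wild type) and J2KO, which lacks JARID2, the defining subunit of the Polycomb complex PRC2.2. A second set was PclWT (wild type), TKO, which lacks the 3 Polycomb-like proteins PCL1-3 (PHF1, MTF2 and PHF19) that define PRC2.1, and QKO, which lacks PCL1-3 and JARID2. RNA of these 5 lines was taken at both stages. A further pair, WT and Pcgf2/4 KO (which lacks 2 subunits of canonical PRC1), was taken as EpiLCs. ESCs were kept in GMEM with serum, LIF and inhibitors of GSK3 (CHIRON99021, 3 µM) and of MEK (PD0325901, 1 µM). EpiLCs were kept for 2 days on fibronectin in NDiff227 with 20 ng/ml activin A, 12 ng/ml bFGF and 1% serum replacement. Stage and medium therefore changed together in every line and cannot be told apart. The labels name 1 line for each genotype. They do not say whether replicate libraries were grown separately, and the spread behind each p-value may be technical.

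Glycolysis takes up glucose through GLUT transporters, traps it by hexokinase, splits it into trioses and ends in pyruvate, which lactate dehydrogenase turns into lactate for export by monocarboxylate transporters. When oxygen is present, prolyl hydroxylases of the Egln family mark the α subunits of hypoxia-inducible factors (HIFs) for destruction by VHL. When oxygen is scarce, HIF pairs with ARNT, binds a short core sequence and raises the transcription of most glycolytic genes and of genes such as *Vegfa* and *Bnip3*. Naive mouse ESCs are known to use glycolysis and respiration together, and primed epiblast cells to lean more on glycolysis.

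The libraries held between 6784578 and 18026492 counts in genes. The EpiLC label was checked against markers of naive and formative pluripotency, each given as the sum of its list in CPM (gene counts scaled to a common library size by TMM). The 8 naive markers summed to 4895 to 5112 CPM in J2WT ESCs and 272 to 287 in J2WT EpiLCs, and to 3841 to 4016 and 374 to 467 in PclWT. The 5 formative markers summed to 3741 to 3819 CPM in J2WT EpiLCs and to 904 to 1088 in PclWT EpiLCs. *Fgf5* averaged 58.3 CPM in J2WT EpiLCs, 44.02 in WT, 0.896 in PclWT, 3.99 in TKO and 1.71 in QKO, so the second set of lines had little of this defining marker. The 6 fibroblast and feeder markers summed to at most 26.02 CPM in any library. Of the deleted genes, *Mtf2* had a median of 418 CPM in PclWT ESCs, 44.8 in TKO and 38.8 in QKO. *Phf1* had 8.57, 0.628 and 0.543 in the same order. *Phf19* was low throughout, at 1.56, 1.36 and 0.635, so counts do not check its loss in TKO. *Jarid2* kept a median of 411 CPM in J2KO ESCs against 459.9 in J2WT, and *Pcgf2* 64.6 in Pcgf2/4 KO against 59.4 in WT, so counts over the whole gene do not check those labels. PclWT EpiLC replicate 1 stood apart from the others of its group: 1258 and 1460 genes differed over 2-fold between it and replicates 2 and 3, against 2 genes between replicates 2 and 3. Of the 34 genes, 22 were higher and 9 lower in that library than in both others, counted for these genes only and not for all genes. Its share of counts in rRNA genes was 1.21% against 0.294% and 0.239% in the others, and 16.2% of its reads mapped to several places against 11.7% and 11.8%. Among QKO EpiLCs the rRNA share was 4.15% in replicate 2, compared with 0.426% and 0.358% in the others, and 30.2% of its reads fell in no single gene, but 12 and 10 genes differed over 2-fold between it and the others. Counts without PclWT EpiLC replicate 1 stand beside those with it.

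The core sequence that HIF binds is ACGTG or GCGTG, which reads CACGT or CACGC on the other strand. It was looked for on both strands in the 250 bases before each start site in RefSeq (GRCm38.p6), where 32 of the 34 genes had an entry and *Slc2a3* and *Ndrg1* had none. At least 1 start of 29 of these 32 genes (90.6%) held the core, against 41.5% of 27025 genes. Among windows with at least 10 CG pairs, 84.8% of 33 windows of these genes held it, against 64.2% of 12417. *Gpi1*, *Tpi1* and *Eno2* held none. The stretches below, 5′ to 3′ with the cores in capitals, are those of the 5 genes that rose from ESC to EpiLC in all 5 lines and of *Ldha*, whose direction differed between lines. In *Ldha* and *Bnip3* the run CACGTG, which 6.02% of all windows hold, carries the core on both strands.
Aldoc (chr11:78323003-78323047, plus strand): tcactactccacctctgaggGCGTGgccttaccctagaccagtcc
Pdk1 (chr2:71873126-71873170, plus strand): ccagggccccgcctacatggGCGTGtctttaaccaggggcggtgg
Bnip3 (chr7:138909517-138909643, minus strand): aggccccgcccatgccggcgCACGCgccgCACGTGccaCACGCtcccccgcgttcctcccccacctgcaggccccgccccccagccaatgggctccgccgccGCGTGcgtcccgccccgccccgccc
Egln3 (chr12:54204079-54204123, minus strand): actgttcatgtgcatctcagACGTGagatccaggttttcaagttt
Slc16a3 (chr11:120949020-120949066, plus strand): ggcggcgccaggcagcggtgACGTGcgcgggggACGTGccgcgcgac
Ldha (chr7:46845639-46845794, plus strand): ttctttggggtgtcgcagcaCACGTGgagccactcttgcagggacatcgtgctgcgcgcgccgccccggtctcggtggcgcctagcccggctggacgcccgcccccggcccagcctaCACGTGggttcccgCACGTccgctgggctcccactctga
*Hk1*, *Hk2*, *Pfkp* and *Kdm3a*, which fell in all 5 lines, held the core at 1 start or more as well. As 29 of the 32 genes held it, its presence could not separate genes that rose from genes that fell.

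Levels between genes were compared per exon length, as CPM divided by kilobases of exon (RPKM). *Aldoa* (aldolase A) and *Pkm* (pyruvate kinase) were the highest of the 34 genes in 11 of the 12 groups, with *Aldoa* at 565 RPKM and *Pkm* at 370.1 in J2WT ESCs. In TKO ESCs the glucose transporter *Slc2a3* was highest, at 648 RPKM. *Car9*, a carbonic anhydrase of the cell surface and a classic hypoxia gene, was at 0.266 RPKM in J2WT ESCs and at most 2.15 in any group, and it was too low to be tested in the second set of lines. *Aldoa*, *Gapdh*, *Pgk1*, *Pgam1* and *Ldha* have annotated pseudogenes of the same name. Their reads can be lost as mapping to several places or fall to a copy, so their levels are uncertain. Copies under other names were not looked for, so other genes may share this limit. Reads carry no strand, and 17 of the 34 genes overlap another annotated gene, among them *Hk1* with *Hk1os* and *Aldoa* with *Fam57b*. The 34 genes together took 1.07% to 1.10% of counts in J2WT ESCs and 1.32% to 1.35% in J2WT EpiLCs. They took 1.11% to 1.17% in PclWT ESCs and 0.850% to 1.02% in PclWT EpiLCs. The highest shares were 1.79% to 1.81% in WT EpiLCs and 2.48% to 2.61% in Pcgf2/4 KO EpiLCs.

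From ESC to EpiLC the J2WT line raised most of these genes, with the lactate exporter *Slc16a3* moving furthest, and lowered the transporter *Slc2a3* and both main hexokinases. Of 34 genes tested, 23 were higher in EpiLCs, 10 were lower and 1, *Gapdh*, did not pass (edgeR quasi-likelihood test, Benjamini-Hochberg adjusted p under 0.05 over all genes tested). Of all genes tested, 40% were higher and 42.3% lower. By over 2-fold, 11 were higher and 4 lower, against 15.2% and 15% of all genes. The median log2 fold change was 0.73 for these genes and -0.023 for all genes tested. RNA was measured in bulk, so a change in the share of cells and a change per cell cannot be told apart.

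**Figure D1:**
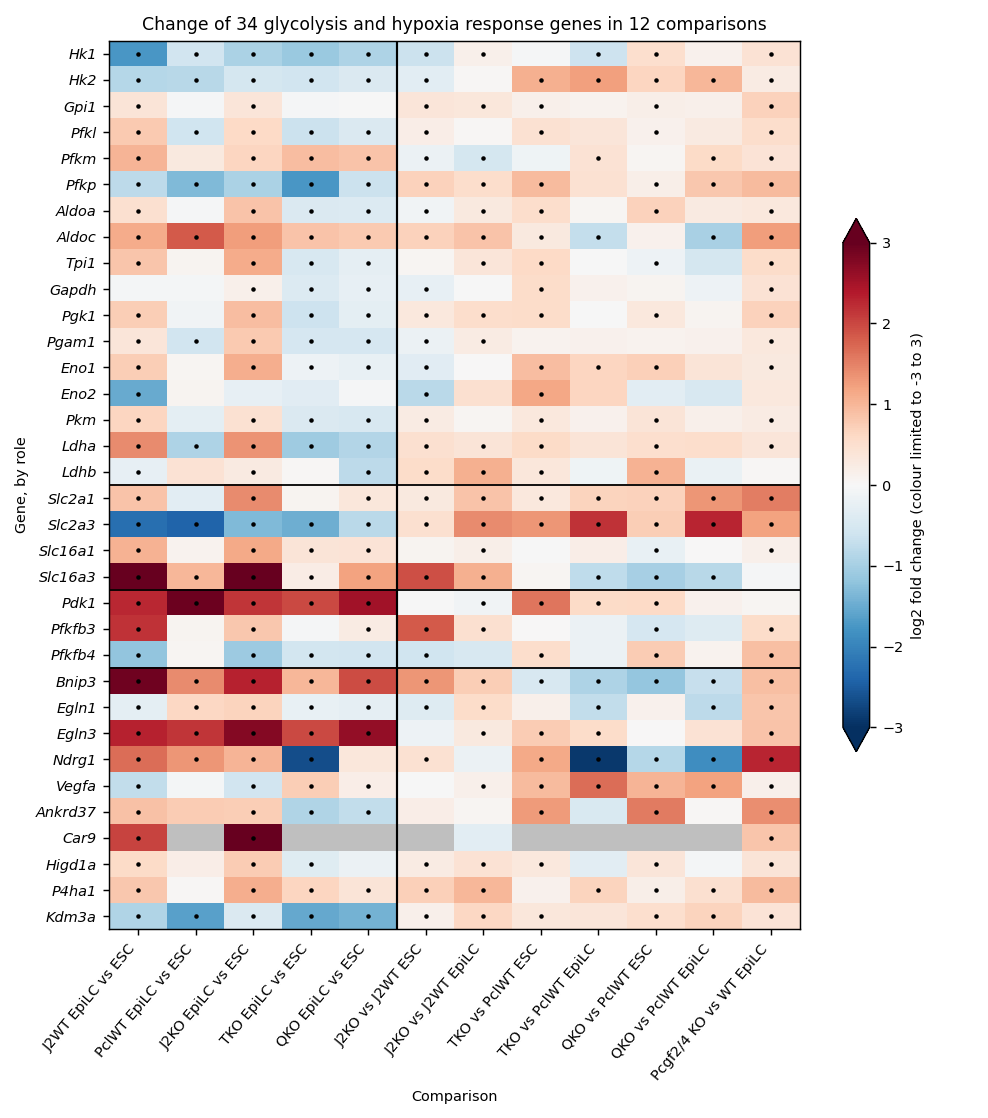
log2 fold change of each of the 34 genes (rows, by role) in 5 comparisons of EpiLC with ESC and 7 of a mutant with its wild type (columns), with red higher and blue lower in the first-named group, a dot where the adjusted p was under 0.05, and grey where the gene was too low to test. The 23 genes that rose in J2WT are mostly pale or blue in PclWT, TKO and QKO, and the last column, Pcgf2/4 KO, holds 30 dots, all on red.

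Among the enzymes, 11 of 17 rose in J2WT and 5 fell. *Ldha*, the lactate dehydrogenase subunit that favours lactate, read 488, 506 and 519 CPM in the 3 ESC libraries and 1323, 1334 and 1378 in the 3 EpiLC libraries. All EpiLC values lay above all ESC values (log2 fold change 1.43 ± 0.035 (SE), edgeR adjusted p = 1.10e-21). *Pfkm*, a phosphofructokinase subunit, rose from 51.5, 52.04 and 52.6 to 103, 103 and 107 CPM (log2 fold change 1.01 ± 0.044 (SE), edgeR adjusted p = 1.10e-16). The aldolase *Aldoc* rose from 7.97, 9.13 and 9.995 to 18.1, 19.2 and 20.7 CPM (log2 fold change 1.11 ± 0.091 (SE), edgeR adjusted p = 4.17e-11). The other 8 that rose, *Gpi1*, *Pfkl*, *Aldoa*, *Tpi1*, *Pgk1*, *Pgam1*, *Eno1* and *Pkm*, act along the main chain from glucose-6-phosphate isomerase to pyruvate kinase, with log2 fold changes from 0.37 for *Pgam1* to 0.84 for *Tpi1*. The first step of the pathway went the other way. *Hk1*, a hexokinase, fell from 168, 179 and 182 to 51.3, 51.5 and 53.1 CPM (log2 fold change -1.75 ± 0.045 (SE), edgeR adjusted p = 2.37e-21). The hexokinase *Hk2* changed by -0.87 ± 0.033 (SE) on the log2 scale, the phosphofructokinase *Pfkp* by -0.78 and *Ldhb*, the other lactate dehydrogenase subunit, by -0.26. *Eno2*, the enolase of neurons, fell from 4.22, 4.77 and 5.17 to 0.975, 1.60 and 2.36 CPM (log2 fold change -1.52 ± 0.21 (SE), edgeR adjusted p = 3.06e-07). *Eno2* (chromosome 6, 124760053 to 124769673) and *Tpi1* (124810586 to 124814296) lie close together on the same strand and moved in opposite directions. They are 2 of the 7 genes of the list on chromosome 6.

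All 4 transporters changed in J2WT. *Slc16a3* (MCT4), the lactate exporter of strongly glycolytic cells, read 21.5, 22.8 and 25.3 CPM in ESCs and 496, 506 and 509.5 in EpiLCs (log2 fold change 4.45 ± 0.049 (SE), edgeR adjusted p = 1.79e-28). This was the widest change of the 34 genes in this line, 21.9-fold. *Slc16a1* (MCT1) rose from 129, 131 and 137 to 271, 271 and 273 CPM (log2 fold change 1.05 ± 0.037 (SE), edgeR adjusted p = 2.05e-18), and the glucose transporter *Slc2a1* (GLUT1) from 237, 253 and 254 to 426, 440.0 and 471 CPM (log2 fold change 0.86 ± 0.041 (SE), edgeR adjusted p = 7.77e-16). *Slc2a3* (GLUT3) fell from 1615, 1660.4 and 1678 to 332, 337 and 358 CPM (log2 fold change -2.26 ± 0.036 (SE), edgeR adjusted p = 2.08e-25). In J2WT the 2 stages did not overlap for any of the 34 genes, *Gapdh* included, so this did not set the 4 transporters apart. The share of all genes without overlap was not counted in any comparison.

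The flux regulators and the hypoxia-induced genes held the other wide changes. *Pdk1*, the kinase that keeps pyruvate out of the mitochondrial pyruvate dehydrogenase, rose from 74.6, 75.8 and 77.3 to 354, 362 and 366 CPM (log2 fold change 2.26 ± 0.037 (SE), edgeR adjusted p = 4.15e-25). *Pfkfb3*, which makes the activator fructose-2,6-bisphosphate, rose from 5.92, 6.51 and 7.37 to 27.6, 29.8 and 30.95 CPM (log2 fold change 2.17 ± 0.088 (SE), edgeR adjusted p = 3.20e-17), whereas its relative *Pfkfb4* fell from 4.67, 5.16 and 5.74 to 1.85, 2.33 and 2.62 CPM (log2 fold change -1.18 ± 0.16 (SE), edgeR adjusted p = 4.44e-07). Of the 10 hypoxia-induced genes 7 rose and 3 fell. *Bnip3*, a mitophagy receptor, rose from 7.78, 8.19 and 9.09 to 58.96, 64.2 and 64.2 CPM (log2 fold change 2.91 ± 0.071 (SE), edgeR adjusted p = 9.91e-22). The prolyl hydroxylase *Egln3*, itself a HIF target, rose from 10.3, 12.1 and 12.2 to 55.4, 56.1 and 58.7 CPM (log2 fold change 2.31 ± 0.068 (SE), edgeR adjusted p = 3.87e-20). *Ndrg1*, a stress-responsive gene, rose from 8.03, 8.58 and 8.75 to 23.9, 26.9 and 29.2 CPM (log2 fold change 1.67 ± 0.088 (SE), edgeR adjusted p = 6.52e-15), and *Car9* from 0.498, 0.63 and 0.709 to 2.39, 2.55 and 2.56 CPM (log2 fold change 2.03 ± 0.25 (SE), edgeR adjusted p = 5.87e-08). *Ankrd37*, *Higd1a* and the collagen prolyl hydroxylase *P4ha1* rose by 0.89, 0.58 and 0.80 on the log2 scale. The angiogenic factor *Vegfa*, the histone demethylase *Kdm3a* and the oxygen sensor *Egln1* fell, by log2 fold changes of -0.74, -0.89 and -0.28, so the hypoxia-induced genes did not move as a block.

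In PclWT the same change of stage lowered *Ldha*, *Pfkl* and *Pgam1* of the enzymes that rose in J2WT, while *Pdk1*, *Egln3*, *Aldoc*, *Bnip3*, *Ndrg1* and *Slc16a3* rose and *Slc2a3* fell, as in J2WT. Of 33 genes tested, 7 were higher in EpiLCs, 8 were lower and 18 did not pass, against 15.4% higher and 14.7% lower of all genes tested. By over 2-fold, 5 were higher and 3 lower, against 8.68% and 6.55% of all genes. The median log2 fold change was 0.058, beside -0.02 for all genes. Without PclWT EpiLC replicate 1, 9 were higher, 13 lower and 11 did not pass, against 31.3% and 33.8% of all genes, and the median was -0.047.

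**Figure D2:**
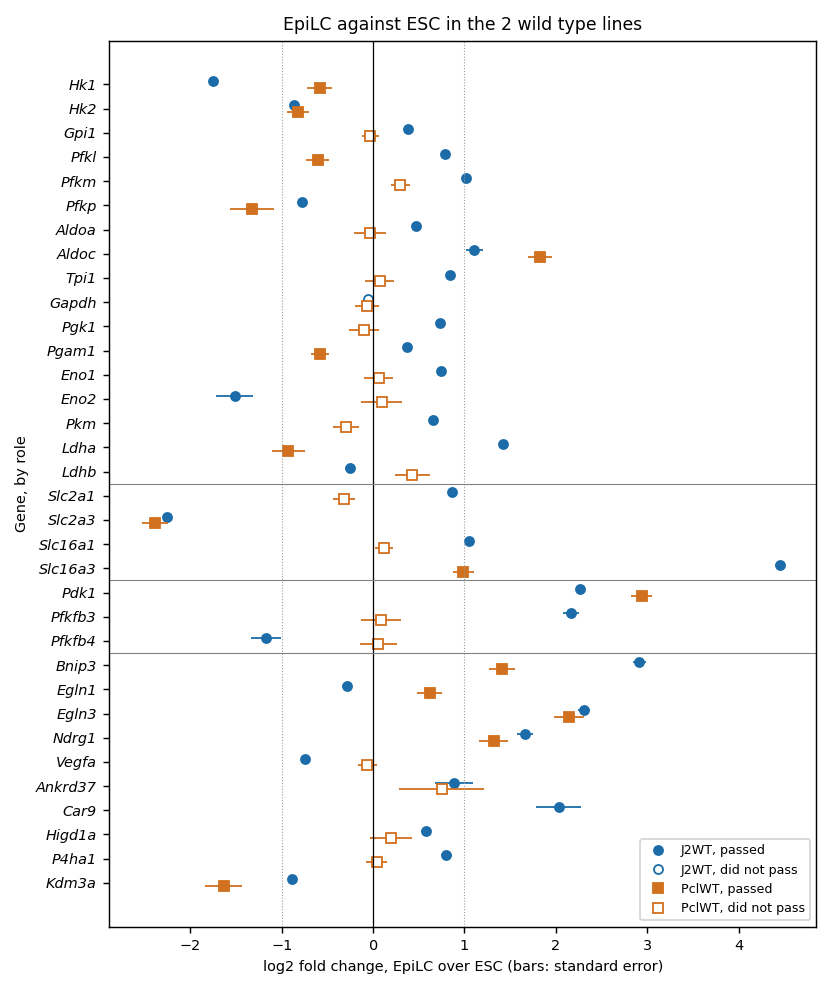
log2 fold change of each gene from ESC to EpiLC, with its standard error, in J2WT (blue circles) and PclWT (orange squares), with open symbols for genes that did not pass the test and dotted lines at 2-fold. *Ldha* lies at 1.43 in J2WT and -0.93 in PclWT, and *Slc16a3* at 4.45 and 0.99.

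*Ldha* read 723, 771 and 811 CPM in PclWT ESCs and 337, 372 and 525 in PclWT EpiLCs (log2 fold change -0.93 ± 0.18 (SE), edgeR adjusted p = 0.00945). Every EpiLC library of this line was below every ESC library, the reverse of J2WT, and without replicate 1 the fall was wider (log2 fold change -1.12 ± 0.063 (SE), edgeR adjusted p = 3.41e-10). *Pfkl* and *Pgam1* also rose in J2WT and fell in PclWT, where their log2 fold changes were -0.61 and -0.58. The log2 fold changes of *Gpi1*, *Aldoa*, *Tpi1*, *Gapdh*, *Pgk1*, *Eno1* and *Pkm* lay between -0.30 and 0.07 and did not pass with all libraries. Without replicate 1, 4 of these 7 passed as lower, *Pkm* at -0.41 (edgeR adjusted p = 8.79e-06), *Pgk1* at -0.27, *Aldoa* at -0.21 and *Gapdh* at -0.15, and *Pfkm* and *Ldhb* passed as higher, at 0.26 and 0.23. *Slc2a1* read 228, 243 and 245 CPM in ESCs and 172, 195 and 219 in EpiLCs and did not pass with all libraries (edgeR adjusted p = 0.0948), but passed as lower without replicate 1 (log2 fold change -0.38 ± 0.065 (SE), edgeR adjusted p = 8.79e-05). *Slc16a3* rose from 55.99, 56.04 and 57.03 to 102, 115 and 125 CPM (log2 fold change 0.99 ± 0.11 (SE), edgeR adjusted p = 0.001), 1.98-fold.

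Of the genes that moved by over 2-fold in PclWT, *Pdk1* rose from 27.2, 28.4 and 29.6 to 203, 229 and 234 CPM (log2 fold change 2.94 ± 0.11 (SE), edgeR adjusted p = 3.49e-05) and *Egln3* from 5.24, 7.08 and 7.57 to 28.8, 30.3 and 30.5 CPM (log2 fold change 2.14 ± 0.16 (SE), edgeR adjusted p = 1.92e-04). *Slc2a3* fell from 1829, 1837 and 1864 to 296, 386 and 391 CPM (log2 fold change -2.39 ± 0.14 (SE), edgeR adjusted p = 8.44e-05). The histone demethylase *Kdm3a* fell from 211, 226 and 227 to 50.97, 80.7 and 85.6 CPM (log2 fold change -1.64 ± 0.20 (SE), edgeR adjusted p = 0.00129). The stages did not overlap for these 4 genes, with or without replicate 1. *Aldoc*, *Bnip3*, *Ndrg1* and *Pfkp* had log2 fold changes of 1.83 ± 0.13 (SE), 1.41 ± 0.14 (SE), 1.32 ± 0.16 (SE) and -1.32 ± 0.24 (SE).

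The size of the change from ESC to EpiLC was tested for a difference between the 2 wild types, which share no library. The difference passed for 25 of 33 genes, against 42.9% of all genes tested. Of these 25, 17 had a lower log2 fold change in PclWT and 8 a higher one. Without PclWT EpiLC replicate 1 the difference passed for 28, 19 lower and 9 higher, against 33.4% and 31.7% of all genes, with *Hk2*, *Pfkp* and *Higd1a* added. The widest of these 17 were *Slc16a3* (difference -3.45 ± 0.12 (SE) in log2 units, edgeR adjusted p = 9.84e-09), *Ldha* (-2.34 ± 0.19 (SE), edgeR adjusted p = 2.64e-06), *Pfkfb3* (-2.07 ± 0.25 (SE), edgeR adjusted p = 4.99e-05) and *Bnip3* (-1.49 ± 0.15 (SE), edgeR adjusted p = 1.33e-05). *Eno2*, *Pfkfb4* and *Hk1*, which fell in J2WT, had a higher log2 fold change in PclWT by 1.62, 1.25 and 1.18. Among the genes that moved the same way in both lines, the difference did not pass for *Slc2a3* (-0.12 ± 0.14 (SE), edgeR adjusted p = 0.541), *Egln3* (-0.15 ± 0.17 (SE), edgeR adjusted p = 0.497) or *Hk2* (0.054 ± 0.12 (SE), edgeR adjusted p = 0.751). Nor did it pass with all libraries for *Pfkp* or *Ndrg1*. Without replicate 1 the difference for *Hk2* passed, at 0.16 ± 0.057 (SE, edgeR adjusted p = 0.0162), as did that for *Pfkp*. The difference for *Ndrg1* did not pass without it either (-0.38 ± 0.20 (SE), edgeR adjusted p = 0.104). The formative markers, lower in PclWT EpiLCs than in J2WT EpiLCs as given above, moved with these differences, and their part in them was not tested.

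In the mutant lines most enzymes rose from ESC to EpiLC in J2KO and most fell in TKO and in QKO. In J2KO 26 of 34 genes were higher in EpiLCs and 7 lower, against 40.3% and 42.8% of all genes, with 13 and 2 over 2-fold against 15% and 12.3%. In TKO 9 of 33 were higher and 19 lower, against 36.2% and 37.7% of all genes, with 2 and 6 over 2-fold against 13.8% and 8.75%. In QKO 11 of 33 were higher and 18 lower, against 36.2% and 37.1%, with 4 and 1 over 2-fold against 11.9% and 7.17%. The median log2 fold change of these genes was 0.77 in J2KO, while TKO had -0.35 and QKO -0.25, and those of all genes lay between -0.028 and -0.013. Among the 17 enzymes, 13 rose in J2KO, 12 fell in TKO and 13 fell in QKO. *Ldha* rose in J2KO from 688, 691 and 706 to 1634, 1784 and 1815 CPM (log2 fold change 1.34 ± 0.033 (SE)). It fell in TKO from 1145, 1147 and 1214 to 504, 539.5 and 613 CPM (-1.06 ± 0.058 (SE)) and in QKO from 1084, 1087 and 1107 to 538, 622 and 630.1 CPM (-0.88 ± 0.047 (SE)). *Ldha* thus rose in both lines of the first pair and fell in all 3 lines of the second set.

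Beyond *Ldha*, the genes over 2-fold were spread over all roles in J2KO and lay outside the enzymes in QKO. In J2KO *Slc16a3* rose from 83.6, 88.4 and 91.2 to 1001, 1035 and 1092 CPM (log2 fold change 3.58 ± 0.037 (SE), edgeR adjusted p = 2.53e-42). *Car9* rose from 0.199, 0.238 and 0.248 to 1.94, 1.94 and 2.09 CPM (log2 fold change 3.09 ± 0.34 (SE), edgeR adjusted p = 2.19e-10), and *Slc2a1* from 294, 296 and 307 to 706, 823 and 868 (log2 fold change 1.43 ± 0.044 (SE), edgeR adjusted p = 3.43e-27). *Tpi1* and *Eno1* of the main chain passed 2-fold in J2KO as well, at 1.11 and 1.10 on the log2 scale. *Aldoc* (1.26), *Slc16a1* (1.14), *P4ha1* (1.08) and *Ndrg1* (1.02) rose over 2-fold there and *Pfkfb4* (-1.08) fell. In TKO the 6 genes that fell over 2-fold were *Hk1* (-1.11), *Pfkp*, *Ldha*, *Slc2a3*, *Ndrg1* (-2.66) and *Kdm3a*. Of these *Pfkp* fell from 544, 617 and 677 to 170.4, 171 and 196 CPM (log2 fold change -1.75 ± 0.073 (SE), edgeR adjusted p = 3.87e-13) and *Kdm3a* from 281, 284 and 287 to 90.8, 97.4 and 100.0 (log2 fold change -1.54 ± 0.048 (SE), edgeR adjusted p = 6.22e-15). In QKO *Kdm3a* was the 1 gene that fell over 2-fold (-1.43 ± 0.058 (SE)), and *Slc16a3*, *Pdk1*, *Bnip3* and *Egln3* rose over 2-fold. *Egln3* read 5.79, 6.73 and 7.28 CPM in QKO ESCs and 27.7, 44.1 and 49.4 in QKO EpiLCs, where the lowest value was that of replicate 2.

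Whether the stage change differed between a mutant and its own wild type was tested for each gene. In J2KO the difference passed for 24 of 34 genes, against 54.1% of all genes, with 16 log2 fold changes higher and 8 lower than in J2WT. *Pfkfb3* rose less in J2KO than in J2WT (difference -1.38 ± 0.11 (SE), edgeR adjusted p = 8.35e-12) and *Eno2* differed the other way (1.25 ± 0.30 (SE), edgeR adjusted p = 6.49e-04). In TKO the difference passed for 11 of 33 genes, against 15.3% of all genes, and in QKO for 8 of 33, against 16.2%. Both are measured against the same PclWT libraries, and without PclWT EpiLC replicate 1 these counts were 18 and 16. The shares of all genes rose as well without that library. Then 18% of all genes had a higher and 17.5% a lower log2 fold change in TKO than in PclWT, and 19.2% and 17.8% in QKO. Of the genes that passed, *Ndrg1* had the widest difference in TKO. It rose from 3.49, 3.75 and 4.23 to 8.61, 10.03 and 10.5 CPM in PclWT and fell from 6.84, 7.76 and 11 to 0.721, 1.42 and 1.99 CPM in TKO (difference -4.03 ± 0.36 (SE), edgeR adjusted p = 3.62e-05). In QKO it read 1.74, 2.08 and 2.54 CPM in ESCs and 1.92, 2.99 and 3.04 in EpiLCs, which overlapped, and its stage change did not pass (edgeR adjusted p = 0.215). *Aldoc* rose less in TKO and in QKO than in PclWT (differences -1.02 ± 0.17 (SE) and -1.06 ± 0.17 (SE)), as did *Pdk1* (-1.03 ± 0.12 (SE) and -0.43 ± 0.11 (SE)). *Slc2a3* fell less in QKO than in PclWT (1.59 ± 0.14 (SE)), and *Ldhb* differed by -1.21 ± 0.20 (SE) there. The naive markers summed to 1259 to 1370.1 CPM in QKO EpiLCs and 565 to 627 in TKO EpiLCs, against 374 to 467 in PclWT EpiLCs, and the formative markers to 2740.0 to 3113 and 2124 to 2268, against 904 to 1088. The formative genes did not move alike. *Dnmt3a* averaged 2614 CPM in QKO, 1490 in TKO and 460 in PclWT EpiLCs, and *Otx2* 59.1, 13.2 and 3.39. *Dnmt3b* averaged 214, 566 and 430 in the same order, and *Pou3f1* 63.0, 110 and 122. The part of both lists in these differences was not tested.

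Across all 5 lines, 5 genes were higher in EpiLCs and 5 lower. The share of all genes that moved 1 way in all 5 lines was not counted, so these numbers have no background to be read against. The 5 that rose were *Aldoc*, *Slc16a3*, *Pdk1*, *Bnip3* and *Egln3*. *Pdk1* changed by log2 fold changes of 2.26 in J2WT, 2.15 in J2KO, 2.94 in PclWT, 1.97 in TKO and 2.52 in QKO. *Egln3* changed in the same order of lines by 2.31, 2.75, 2.14, 1.98 and 2.63, so both rose over 4-fold in each line except TKO, where the folds were 3.93 and 3.95. *Bnip3* was less even, at 2.91, 2.32, 1.41, 0.99 and 1.95. *Slc16a3* ranged from 0.23 in TKO to 4.45 in J2WT, and *Aldoc* from 0.78 in QKO to 1.83 in PclWT. The 5 that fell were *Hk1*, *Hk2*, *Pfkp*, *Slc2a3* and *Kdm3a*, the first 3 being enzymes of the early, ATP-consuming steps. *Slc2a3* changed by -2.26 in J2WT, -1.33 in J2KO, -2.39 in PclWT, -1.48 in TKO and -0.80 in QKO. *Kdm3a* ranged from -1.64 in PclWT to -0.42 in J2KO, *Hk1* from -1.75 in J2WT to -0.59 in PclWT, *Hk2* from -0.87 in J2WT to -0.44 in QKO, and *Pfkp* from -1.75 in TKO to -0.64 in QKO.

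**Figure D3:**
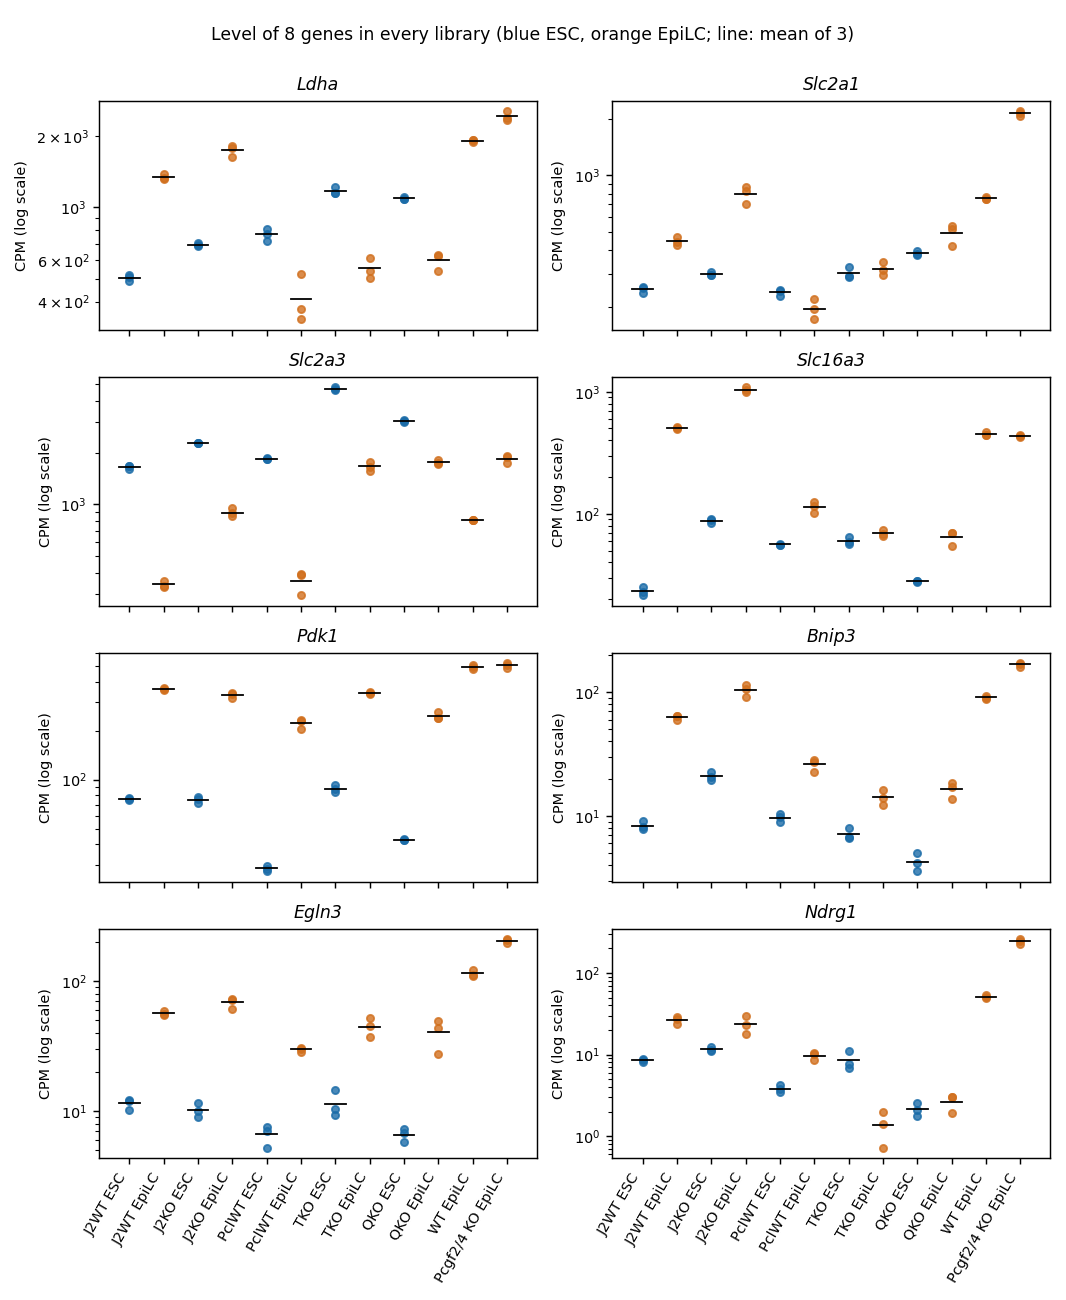
CPM on a log scale of *Ldha*, *Slc2a1*, *Slc2a3*, *Slc16a3*, *Pdk1*, *Bnip3*, *Egln3* and *Ndrg1* in each library of the 12 groups, with ESCs in blue, EpiLCs in orange and a line at the mean of 3 libraries. *Pdk1* and *Egln3* are higher in EpiLCs than in ESCs of every line, *Ldha* is higher in EpiLCs of J2WT and J2KO and lower in EpiLCs of PclWT, TKO and QKO, and *Ndrg1* is at 227, 248 and 259 CPM in Pcgf2/4 KO.

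The balance between genes of the same step was compared as the log2 ratio of their RPKM within a library, given as the mean ± SD of 3 libraries. Length was that of all annotated exons of a gene, 7245 bases for *Slc2a3* and 3506 for *Slc2a1*. The point of equal levels rests on these lengths. In J2WT the main glucose transporter transcript changed from *Slc2a3* to *Slc2a1*: the log2 ratio of *Slc2a1* to *Slc2a3* was -1.69 ± 0.08 in ESCs and 1.43 ± 0.12 in EpiLCs. J2KO moved from -1.88 ± 0.037 to 0.88 ± 0.093. PclWT moved from -1.90 ± 0.056 to 0.18 ± 0.39, with EpiLC libraries on both sides of equal levels. By CPM, which leaves length out, *Slc2a3* (296, 386 and 391) was above *Slc2a1* (172, 195 and 219) in each PclWT EpiLC library. In TKO the ratio stayed below 0, at -2.91 ± 0.13 in ESCs and -1.34 ± 0.03 in EpiLCs, and in QKO at -1.94 ± 0.036 and -0.80 ± 0.17, so *Slc2a3* remained the higher of the pair in all 6 EpiLC libraries of these mutants. For the lactate transporters, the log2 ratio of *Slc16a3* to *Slc16a1* went from -2.78 ± 0.074 to 0.63 ± 0.02 in J2WT and from -0.92 ± 0.055 to 1.52 ± 0.063 in J2KO. It went from -1.99 ± 0.02 to -1.12 ± 0.043 in PclWT and stayed below 0 in every library of PclWT, TKO and QKO. The log2 ratio of *Ldha* to *Ldhb* rose from 1.37 ± 0.057 to 3.05 ± 0.049 in J2WT and fell from 1.88 ± 0.10 to 0.52 ± 0.11 in PclWT and from 2.12 ± 0.017 to 1.02 ± 0.068 in TKO. In QKO the EpiLC value, 1.24 ± 0.19, differed from the ESC value, 1.35 ± 0.042, by less than its own SD.

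**Figure D4:**
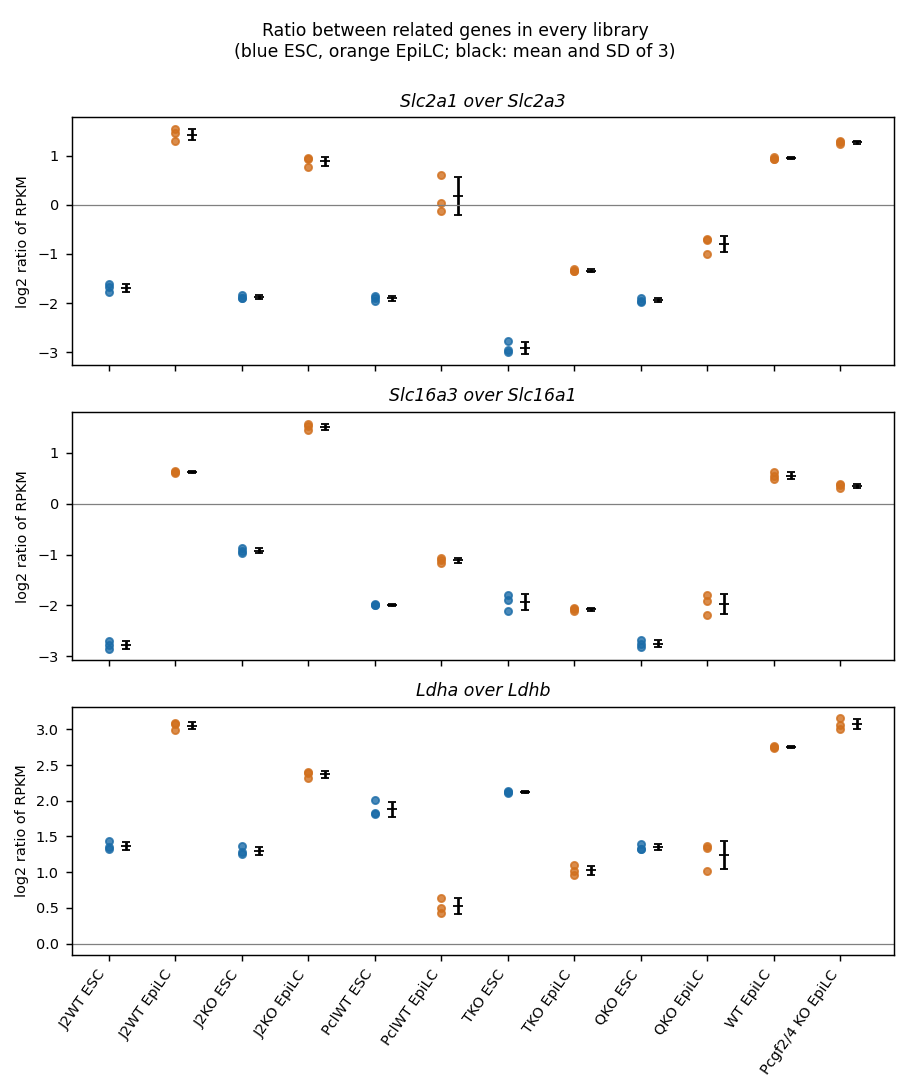
log2 ratio of the RPKM of *Slc2a1* to *Slc2a3*, *Slc16a3* to *Slc16a1* and *Ldha* to *Ldhb* in each library of the 12 groups, with ESCs in blue, EpiLCs in orange and the mean ± SD of 3 libraries in black. The line at 0 marks equal levels per length of annotated exon, which *Slc2a1* exceeds in the EpiLCs of J2WT, J2KO, WT and Pcgf2/4 KO and not in those of TKO and QKO.

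In ESCs most of the 34 genes were higher without PCL1-3. In TKO 24 of 33 genes were higher than in PclWT and 1, *Bnip3*, was lower, against 33.9% and 32.9% of all genes. By over 2-fold 6 were higher and 0 lower, against 6.64% and 7.08%, and DESeq2 at an adjusted p under 0.05 gave 22 higher and 1 lower at any size. Of the 17 enzymes 14 were higher and 0 lower. At an unadjusted p under 0.05, edgeR gave 24 higher and 1 lower of the 33 genes. *Pdk1* read 27.2, 28.4 and 29.6 CPM in PclWT and 83.9, 87.1 and 92.9 in TKO (log2 fold change 1.60 ± 0.071 (SE), edgeR adjusted p = 6.70e-13). *Slc2a3* rose from 1829, 1837 and 1864 to 4598, 4667 and 4809 CPM (log2 fold change 1.32 ± 0.049 (SE), edgeR adjusted p = 6.07e-14), and *Hk2* from 274, 279 and 279 to 562, 592 and 609.6 (log2 fold change 1.06 ± 0.052 (SE), edgeR adjusted p = 2.97e-12). All TKO libraries were above all PclWT libraries for these 3 genes. The 2 groups did not overlap for 25 of the 34 genes, but the share of all genes without overlap was not counted. *Ndrg1*, *Ankrd37* and *Eno2* were over 2-fold higher as well, from low levels, with log2 fold changes of 1.14 ± 0.19 (SE), 1.27 ± 0.29 (SE) and 1.17 ± 0.16 (SE). The median log2 fold change was 0.45, beside 0.0055 for all genes. From PclWT to TKO ESCs the naive markers summed to 3841 to 4016 and 5734 to 6019.6 CPM, the 3 mesoderm markers to 14.1 to 16.9 and 40.1 to 41.7, and the 2 neuroectoderm markers to 0.428 to 1.11 and 27.7 to 30.8. In QKO ESCs these 3 lists summed to 5459 to 5509, 15.4 to 17.3 and 9.28 to 10.1 CPM. Of the mesoderm markers only *Eomes* rose from PclWT to TKO ESCs, from a mean of 12.4 to 39.6 CPM. *Mixl1* went from 2.76 to 1.15 and *Mesp1* from 0.170 to 0. The part of these lists in the changes of the 34 genes was not tested.

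In QKO ESCs 20 of 33 genes were higher than in PclWT and 6 lower, against 36.5% and 33.4% of all genes, with 3 and 2 over 2-fold against 6.15% and 7.64%. *Ldhb* rose from 91.2, 97.3 and 108 to 199, 205 and 206 CPM (log2 fold change 1.04 ± 0.06 (SE), edgeR adjusted p = 1.71e-10) and *Vegfa* from 31.6, 34.3 and 35.4 to 66.8, 68.3 and 68.4 (log2 fold change 1.01 ± 0.062 (SE), edgeR adjusted p = 4.18e-10). *Ankrd37* was higher by 1.57 ± 0.24 (SE) on the log2 scale. *Bnip3* fell from 8.91, 9.79 and 10.3 to 3.56, 4.17 and 4.998 CPM (log2 fold change -1.17 ± 0.16 (SE), edgeR adjusted p = 4.72e-06) and *Slc16a3* from 55.99, 56.04 and 57.03 to 27.7, 27.95 and 28.4 (log2 fold change -1.0028 ± 0.063 (SE), edgeR adjusted p = 5.11e-10). TKO and QKO share PclWT as control, so their changes are not independent.

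Compared directly, QKO ESCs had 5 of these genes higher and 17 lower than TKO ESCs, against 19.5% and 22.5% of all genes. *Ndrg1* (-2.02 ± 0.23 (SE)), *Eno2* (-1.52 ± 0.18 (SE)), *Slc16a3* (-1.10 ± 0.071 (SE)) and *Pdk1* (-1.05 ± 0.06 (SE)) were over 2-fold lower in QKO. *Pdk1* read 42.3, 42.4 and 43.1 CPM in QKO ESCs, between the PclWT and TKO values. In EpiLCs 6 were higher and 11 lower in QKO, against 23.3% and 22.1%, and *Eno2* was the 1 gene over 2-fold (-1.18 ± 0.18 (SE)).

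In J2KO ESCs 17 of 33 genes were higher than in J2WT and 10 lower, against 36.7% and 34.1% of all genes. By over 2-fold 3 were higher and 0 lower, against 7.01% and 6.34%. *Slc16a3* read 21.5, 22.8 and 25.3 CPM in J2WT ESCs and 83.6, 88.4 and 91.2 in J2KO ESCs (log2 fold change 1.93 ± 0.057 (SE), edgeR adjusted p = 1.49e-16). *Pfkfb3* rose from 5.92, 6.51 and 7.37 to 22.1, 23.04 and 25.5 CPM (log2 fold change 1.84 ± 0.092 (SE), edgeR adjusted p = 4.42e-13) and *Bnip3* from 7.78, 8.19 and 9.09 to 19.6, 20.5 and 22.6 (log2 fold change 1.33 ± 0.088 (SE), edgeR adjusted p = 3.09e-11). *Pdk1* and *Egln3* did not pass, with log2 fold changes of -0.0048 ± 0.043 (SE) and -0.16 ± 0.10 (SE). *Eno2*, *Hk1* and *Pfkfb4* were lower, with log2 fold changes of -0.80, -0.65 and -0.59. The enzymes divided evenly, with 8 higher and 8 lower.

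In J2KO EpiLCs the genes leaned upwards, with 22 of 34 higher than in J2WT and 2, *Pfkm* and *Pdk1*, lower, against 34.7% and 30.5% of all genes. By over 2-fold 4 were higher and 0 lower, against 6.22% and 2.62%. *Slc2a3* rose from 332, 337 and 358 to 854, 885 and 946 CPM (log2 fold change 1.41 ± 0.034 (SE), edgeR adjusted p = 1.04e-22), *Ldhb* from 74.7, 77.4 and 78.7 to 156, 160.4 and 164 (log2 fold change 1.08 ± 0.036 (SE), edgeR adjusted p = 1.17e-19) and *Slc16a3* from 496, 506 and 509.5 to 1001, 1035 and 1092 (log2 fold change 1.07 ± 0.03 (SE), edgeR adjusted p = 2.37e-21). *P4ha1*, which hydroxylates collagen, rose from 44.2, 45.3 and 45.9 to 78.1, 89.9 and 100.1 CPM (log2 fold change 1.0046 ± 0.06 (SE), edgeR adjusted p = 3.59e-14). All 4 transporters were higher in J2KO EpiLCs, from 0.18 for *Slc16a1* to 1.41 for *Slc2a3*. The log2 fold change of *Pfkm* was -0.53 ± 0.039 (SE) and that of *Pdk1* -0.10 ± 0.03 (SE). The median was 0.32, beside 0.014 for all genes.

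In EpiLCs without PCL1-3 the counts depended on PclWT replicate 1. In TKO EpiLCs 9 of 33 genes were higher than in PclWT, 6 lower and 18 did not pass, against 15.9% and 17.6% of all genes, with 3 and 1 over 2-fold against 6.88% and 7.18%. Without that library 23 were higher and 7 lower, against 33.7% and 32.7% of all genes. *Tpi1*, *Pgk1* and *Ldhb*, which did not pass with all libraries (log2 fold changes -0.016, -0.016 and -0.12), were then higher by 0.18, 0.20 and 0.13. In QKO EpiLCs 8 were higher, 5 lower and 20 did not pass, against 16.5% and 16.2% of all genes, with 3 and 1 over 2-fold against 6.49% and 7.21%. Without that library 17 were higher and 7 lower, against 33.6% and 32.8%.

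The widest changes in these EpiLCs held with and without the library. *Slc2a3* read 296, 386 and 391 CPM in PclWT EpiLCs, 1564, 1658 and 1769.8 in TKO and 1728, 1746 and 1823 in QKO. It rose over 4-fold in both mutants (log2 fold change 2.18 ± 0.14 (SE), edgeR adjusted p = 2.51e-04 in TKO, and 2.29 ± 0.15 (SE), edgeR adjusted p = 1.79e-04 in QKO), and without replicate 1 the log2 fold changes were 2.08 and 2.16. *Vegfa* read 32.5, 32.6 and 33.6 CPM in PclWT, 94.6, 113 and 114 in TKO and 71.03, 75.6 and 84.7 in QKO, with log2 fold changes of 1.67 ± 0.12 (SE) and 1.21 ± 0.11 (SE). *Hk2* rose in TKO by 1.24 ± 0.12 (SE) on the log2 scale and *Slc2a1* in QKO by 1.32 ± 0.15 (SE). *Ndrg1* went the other way, from 8.61, 10.03 and 10.5 CPM in PclWT to the low TKO and QKO values given above (log2 fold change -2.89 ± 0.29 (SE), edgeR adjusted p = 8.90e-04 in TKO, and -1.87 ± 0.21 (SE), edgeR adjusted p = 0.00112 in QKO). *Bnip3*, *Slc16a3*, *Egln1* and *Aldoc* were lower in both mutants, with log2 fold changes of -0.76 and -0.84 for *Slc16a3* and -0.74 and -0.79 for *Egln1*. The call of *Bnip3* in QKO was lost without QKO EpiLC replicate 2 (log2 fold change -0.57, edgeR adjusted p = 0.0695). The 5 primitive endoderm markers summed to 14.2 to 19.2 CPM in PclWT EpiLCs, 88.9 to 97.4 in TKO and 45.6 to 47.5 in QKO, and the 2 neuroectoderm markers to 3.90 to 5.22, 89.4 to 94.3 and 47.7 to 55.9. The naive and formative sums given above also differed between these groups. The part of these markers in the changes was not tested.

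Without the Pcgf2/4 pair nearly all of these genes were higher in EpiLCs. In Pcgf2/4 KO 30 of 34 genes were higher than in WT, 0 were lower and 4 did not pass, against 29.6% higher and 27.4% lower of all genes tested. At an unadjusted p under 0.05, edgeR gave 31 higher and 0 lower, and DESeq2 at an adjusted p under 0.05 gave 29 higher and 0 lower. By over 2-fold 5 were higher and 0 lower, against 1.96% and 3.84% of all genes. The median log2 fold change was 0.48, beside 0.012 for all genes. The 4 that did not pass were *Eno2*, *Ldhb*, *Slc16a3* and *Pdk1*.

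**Figure D5:**
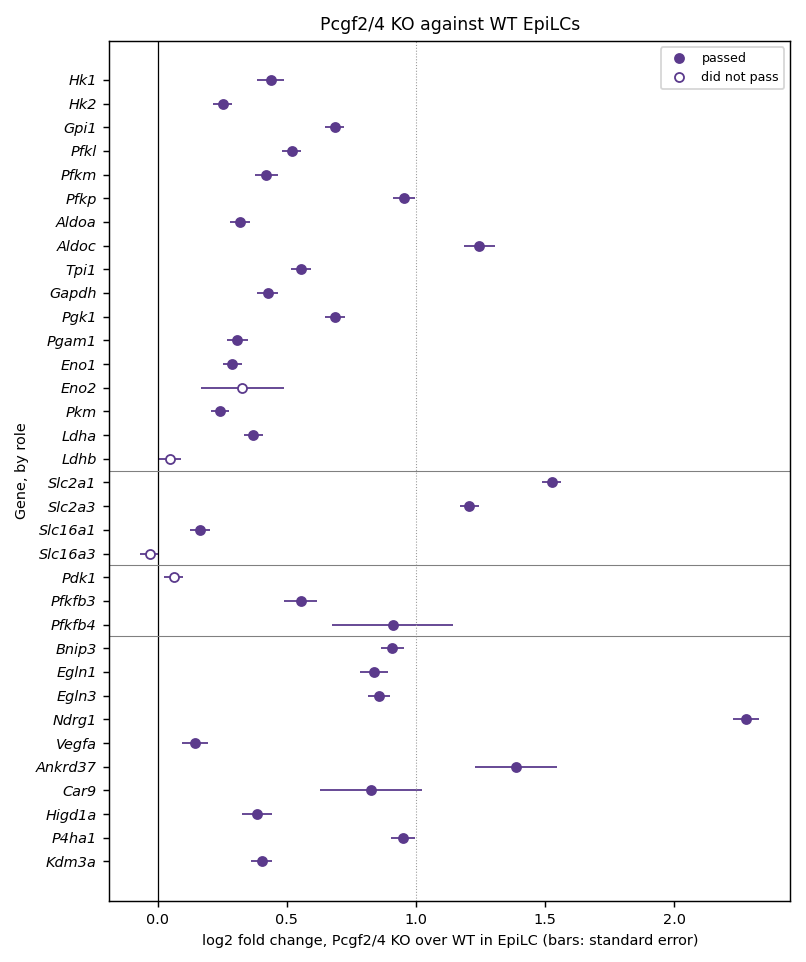
log2 fold change of each gene between Pcgf2/4 KO and WT EpiLCs with its standard error, with open circles for genes that did not pass the test and a dotted line at 2-fold. Values run from -0.031 for *Slc16a3* to 2.28 for *Ndrg1*, and every filled circle lies right of 0.

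*Ndrg1* read 48.8, 50.2 and 54.5 CPM in WT and 227, 248 and 259 in Pcgf2/4 KO (log2 fold change 2.28 ± 0.051 (SE), edgeR adjusted p = 9.06e-33). *Slc2a1* rose from 746, 752 and 769.8 to 2077, 2154 and 2198 CPM (log2 fold change 1.53 ± 0.036 (SE), edgeR adjusted p = 7.04e-32) and *Slc2a3* from 809.7, 812 and 812 to 1744, 1888 and 1899 CPM (log2 fold change 1.21 ± 0.037 (SE), edgeR adjusted p = 6.47e-28), so that both glucose transporters were over 2-fold higher. *Aldoc* rose from 36.2, 36.9 and 40.9 to 82.7, 89.6 and 93.8 CPM (log2 fold change 1.25 ± 0.059 (SE), edgeR adjusted p = 2.91e-21). *Ankrd37*, an ankyrin repeat gene induced by HIF, rose from 2.93, 3.77 and 4.44 to 8.63, 9.71 and 10.5 CPM (log2 fold change 1.39 ± 0.16 (SE), edgeR adjusted p = 7.95e-10). The 3 mutant libraries lay above the 3 wild type libraries for each of these 5 genes. The groups did not overlap for 29 of the 34 genes, a number without a background, as the share of all genes was not counted. All 10 hypoxia-induced genes were higher, from 0.14 for *Vegfa* to 2.28 for *Ndrg1*, as were 15 of the 17 enzymes, from 0.24 for *Pkm* to 1.25 for *Aldoc*. Among the prolyl hydroxylases, *Egln3* rose from 110.4, 113 and 122 to 198, 207 and 211 CPM (0.86 ± 0.044 (SE) on the log2 scale) and *Egln1* from 47.03, 48.3 and 52.1 to 82.3, 86.3 and 91.05 CPM (0.84 ± 0.056 (SE)). *Pdk1* was at 478, 491 and 504 CPM in WT and 485, 509 and 519 in Pcgf2/4 KO and *Slc16a3* at 440.2, 443 and 468 and 422, 435 and 444, ranges that overlapped for both genes. *Pdk1* and *Slc16a3* had risen in all 5 lines from ESC to EpiLC. The naive markers summed to 310.2 to 319.9 CPM in WT and 624 to 694 in Pcgf2/4 KO, and the formative markers to 4014 to 4031 and 2739.7 to 2809. The fibroblast and feeder markers summed to 18.3 to 20.5 and 3.50 to 5.09, the primitive endoderm markers to 8.02 to 10.1 and 22.4 to 24.03, and the neuroectoderm markers to 28.2 to 31.6 and 11.2 to 11.9. These markers moved with the comparison, and their part in it was not tested.

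Other genes of the same pathways were read from 4 lists. Of 27 other hypoxia-induced genes, 25 were tested in Pcgf2/4 KO EpiLCs, where 17 were higher and 3 lower (median log2 fold change 0.42), against 29.6% and 27.4% of all genes. *Gbe1*, the glycogen branching enzyme, was higher by 1.42 on the log2 scale, *Fam162a* by 1.36, *Adm* (adrenomedullin) by 1.12 and *Ero1l* by 1.0011. From ESC to EpiLC in J2WT, 17 of 24 were higher and 7 lower (median 0.59), against 40% and 42.3% of all genes, with *Gbe1* at 1.01 and *Ddit4*, an inhibitor of mTORC1, at 2.41. In PclWT 7 of 24 were higher and 4 lower (median 0.23), against 15.4% and 14.7% of all genes, and *Ddit4* was again among the higher, at 2.19. *Wsb1* and *Ak4* fell in all 5 lines, with log2 fold changes of -2.13 and -2.70 in J2WT.

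Of the 10 oxygen sensing regulators, *Hif1a*, whose product is controlled mainly through its stability, rose with stage in J2WT (0.15 on the log2 scale) and did not pass in PclWT (0.14). In Pcgf2/4 KO EpiLCs 4 of the 10 were higher and 5 lower, against 29.6% and 27.4% of all genes, with *Hif1a* at -0.32 and its partner *Arnt* at 0.71. *Epas1* (HIF-2α) rose with stage in J2WT (1.28) and fell in PclWT (-0.97), and *Hif3a* rose in both (2.02 and 1.96). *Myc*, a transcription factor that also raises glycolytic genes, rose in J2WT (2.51) and did not pass in PclWT (0.41), and *Mycn* rose in J2WT (1.31) and fell in PclWT (-0.68). In Pcgf2/4 KO EpiLCs *Myc* was lower (-0.94). Of 29 other genes of glycolysis and pyruvate use, 21 were tested in J2WT, where 7 rose and 10 fell with stage (median -0.22), against 40% and 42.3% of all genes. *Pdp1*, the phosphatase that opposes *Pdk1*, rose in all 5 lines, by 1.43 in J2WT and 1.49 in PclWT, and *Pdha1*, a subunit of pyruvate dehydrogenase, and *Tigar* fell in all 5. Of these genes 10 of 21 were higher and 3 lower in Pcgf2/4 KO, against 29.6% and 27.4% of all genes. *Pgm1* (1.60), which feeds glycogen synthesis, and *Pdk4* (1.48) were among the higher. Of the 7 pentose phosphate genes in Pcgf2/4 KO, 1 was higher and 3 lower (median -0.12), against 29.6% and 27.4% of all genes. *G6pdx*, the first enzyme of that pathway, was at -0.63. *Hif1a*, *Arnt*, *Epas1*, *Myc* and *Mycn*, *Pdha1* and *G6pdx* were named for their roles after their values were seen, also where they moved less than 2-fold. In J2WT 4 of the 7 pentose phosphate genes rose with stage and 1 fell, against 40% and 42.3% of all genes, with *G6pdx* at 1.17.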

How the data were processed

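Poly(A) RNA of 36 libraries was sequenced as single-end reads. The authors aligned the reads with STAR to Ensembl GRCm38 transcripts and deposited raw counts per gene, of which those read without regard to strand were used. Groups came from the labels. Counts in no single gene (23.2% to 30.2% per library) were left out.

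From the deposited counts, CPM and RPKM were computed after TMM scaling. Genes with a mean normalised count of at least 15 over the libraries compared were tested with edgeR (4.0.16) by its quasi-likelihood test in 18 comparisons, adjusted by Benjamini-Hochberg over all genes tested. A gene passed at an adjusted p under 0.05, and 2-fold was the second threshold. The fits were tested on simulated counts with known changes. Simulated 2-fold changes were recovered for 93.9% of changed genes in J2WT EpiLC against ESC, 57.1% in PclWT and 61.2% in their difference. The PclWT stage comparison thus had less power to pass a gene than that of J2WT. Alternatives were RLE scaling, DESeq2 (1.42.0), no count filter, a replicate block, all libraries of a line family, and leaving out each library. Deviations of samples with equal replicate numbers correlated most in the PclWT stage comparison (0.452, 0.242 and 0.205). Samples with unequal numbers reached 0.256 there, so pairing was not shown, and the block changed no call in that comparison. Sequences came from RefSeq (GRCm38.p6), and gene positions and exon lengths from GENCODE M21. Genes that passed with over 2-fold change in a comparison were named, and most others given by counts and range. The 34 genes and the lists were chosen with earlier results of these data known.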

Additional observations from a re-analysis of the deposited data

Results flagged for a closer look

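The results below are genes whose change from ESC to EpiLC, in log2 units, differed by over 2-fold between lines in a test of the difference itself (edgeR quasi-likelihood interaction test, adjusted p under 0.05 over all genes tested, 3 libraries a group). Explanations for them were not tested. Stage and medium cannot be told apart within a line, and per the labels the 2 sets of lines came from different sources of ESCs.

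Between the wild types, the log2 fold change in PclWT minus that in J2WT was 1.18 for *Hk1*, -1.39 for *Pfkl*, 1.62 for *Eno2*, -2.34 for *Ldha*, -1.16 for *Slc2a1*, -3.45 for *Slc16a3*, -2.07 for *Pfkfb3*, 1.25 for *Pfkfb4* and -1.49 for *Bnip3*. *Ldha* and *Pfkl* moved in opposite directions in the lines. *Bnip3*, *Slc16a3* and *Hk1* moved in the same direction by different amounts.

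Between J2KO and J2WT the difference was 1.25 for *Eno2* and -1.38 for *Pfkfb3*. In J2KO ESCs *Pfkfb3* was at 22.1, 23.04 and 25.5 CPM, against 5.92, 6.51 and 7.37 in J2WT ESCs.

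Between TKO and PclWT the difference was -1.02 for *Aldoc*, -1.03 for *Pdk1* and -4.03 for *Ndrg1*, and between QKO and PclWT -1.06 for *Aldoc*, -1.21 for *Ldhb* and 1.59 for *Slc2a3*. Without PclWT EpiLC replicate 1 the difference for *Aldoc* in TKO was -0.92, under 2-fold, and those for *Pgk1* (-1.0005) and *Pkm* (-1.06) between the wild types came to over 2-fold. Without it the difference for *Ndrg1* in TKO was -3.96 ± 0.33 (SE) and that for *Slc2a3* in QKO 1.42 ± 0.048 (SE). TKO and QKO share the PclWT libraries, so these differences are not independent.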

How the results depend on the processing

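Of the comparisons, those with PclWT EpiLCs depended most on 1 library. Leaving out each library in turn, the number of genes passing ranged from 12 to 22 for PclWT EpiLC against ESC (15 with all libraries), 10 to 30 for TKO against PclWT EpiLC (15), 9 to 24 for QKO against PclWT EpiLC (13), 9 to 18 for the difference in stage effect of TKO and PclWT (11) and 6 to 16 for that of QKO and PclWT (8). The highest count in each of these 5 was without PclWT EpiLC replicate 1, where the shares of all genes passing, given above, were higher too. Without it, the log2 fold changes of *Tpi1* (range over left-out libraries -0.11 to 0.183), *Pgk1* (-0.12 to 0.200) and *Ldhb* (-0.23 to 0.129) in TKO against PclWT EpiLC changed sign. The other 13 comparisons stayed within 1.5 times their count, for example 33 to 34 for J2WT EpiLC against ESC and 29 to 31 for Pcgf2/4 KO. With all libraries of a line family in the fit, 23 genes passed in TKO against PclWT EpiLC in place of 15, and 11 in QKO against TKO EpiLC in place of 17. Over all genes and comparisons, 13 calls were lost and 6 gained with DESeq2, 1 and 3 with RLE scaling, and 9 and 9 without a count filter.

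With the replicate number as a block, 12 genes passed in TKO against PclWT EpiLC and 11 in QKO against PclWT EpiLC, and over all comparisons 12 calls were lost and 8 gained. The labels give samples a replicate number and do not say that equal numbers were paired. The depth limits calls for genes such as *Car9*, *Eno2*, *Ndrg1* and *Pfkfb4*, which had few counts in several groups.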
